A study of Mus musculus with 6 samples.

Results

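The 7 genes described here are Parp9, Parp10, Parp11, Parp12, Parp14 and Zc3hav1, which belong to the poly(ADP-ribose) polymerase (PARP) family, and Dtx3l, whose protein is the partner of PARP9. They were chosen by symbol from the 22298 genes of the deposited mRNA table, and each symbol had 1 row. The samples are 6 libraries of total RNA from GC-1spg, an immortalised mouse germ cell line that stands in for type B spermatogonia, all grown in DMEM with 10% FBS and all transfected with siRNA at 60% density. In 3 libraries (si-METTL3) the siRNA was directed against Mettl3, the catalytic subunit gene of the enzyme complex that places N6-methyladenosine (m6A) in transcripts, and in 3 (si-NC) it was a control siRNA. Cells were taken 48 h later. No untransfected cells were sequenced, although the labels tag the si-NC libraries as untreated. The labels print 1 sequence for both siRNAs, so that of the control is not known. Nothing in them says that the replicates were separate cultures, and p-values therefore rest on a spread among these libraries that may be only technical.

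PARP enzymes take ADP-ribose from NAD and attach it to proteins or nucleic acids. PARP1 and PARP2 build long chains at DNA breaks, whereas PARP10, PARP11, PARP12 and PARP14 add single units, and the protein of Zc3hav1, called ZAP or PARP13, has lost the activity. Most of these genes are induced by interferon in many cell types: receptor signalling through JAK kinases activates STAT factors, which with IRF9 bind the interferon-stimulated response element (ISRE) near the start of target genes, and the gamma-activated site (GAS) is the matching element of interferon gamma. Several of the encoded proteins restrict RNA viruses, and some viruses carry a macrodomain that removes ADP-ribose.

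The mRNA table summed to between 22146057 and 37698956 counts per library. The si-NC libraries held 606, 578 and 683 Mettl3 counts and the si-METTL3 libraries 142, 134 and 136, so the targeted transcript was lower in each library that the labels name as knocked down (log2 fold change -1.79, SE 0.14, edgeR adjusted p = 0.000579). Of 20 germ line markers 6 had enough counts to be tested and 5 had none in any library. The spermatogonial markers Uchl1 (865 to 1516 counts per library), Piwil2 (59 to 162) and Gfra1 (78 to 140) were present. The other tested markers were Id4 (35 to 70), Kit (14 to 55) and Zbtb16 (1 to 35). Kit and Zbtb16 were lowest in si-NC replicates 1 and 2, where Kit stood at 17 and 14 and Zbtb16 at 1 and 2. Replicate 3 of the controls reached 53 for Kit and 35 for Zbtb16. After knockdown Kit ran from 36 to 55 and Zbtb16 from 18 to 28. In si-METTL3 Piwil2 was lower (log2 fold change -0.74, edgeR adjusted p = 0.0173) and Gfra1 higher (0.65, edgeR adjusted p = 0.0389). These calls held in 3 and 1 of the 6 fits with 1 library left out. DESeq2 called 1 of these markers lower and 0 higher. Ddx4 and Dazl, which define germ cells, had 1 to 7 and 0 to 1 counts. As with Kit and Zbtb16, markers of other tissues set si-NC replicate 3 apart from the other si-NC libraries. All 19 lung genes were detected, and they summed to 77.5 to 159 CPM in si-NC (counts scaled to 1000000 for the table's total) and 169 to 217 in si-METTL3; counts of Sftpc, a defining gene of the alveolar epithelium, stood at 38, 1 and 1131 among the controls and at 1503, 1065 and 790 after knockdown. All 6 red cell genes summed to 0.616 to 11.9 and 12.5 to 19.2 CPM, and all 15 macrophage and endothelial genes to 29.8 to 41.5 and 42.7 to 50.02 CPM. In si-NC replicate 3 each of the 7 PARP group genes lay above all 3 si-METTL3 libraries. Without that library 6 of the 7 were called, beside 1624 of 13267 tested genes in either direction. The controls left in that fit had 38 and 1 Sftpc counts, so it cannot separate these tissue markers from the group. Whether RNA of other tissues has a part in the falls was not tested.

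All 7 genes fell in si-METTL3, by 1.40- to 3.59-fold, and none rose (edgeR quasi-likelihood test, adjusted p over all 13082 tested genes under 0.05). Among all tested genes 10.2% were called lower and 8.67% higher. The median log2 fold change of the 7 was -1.51, against 0.03 over all tested genes, and 5 of the 7 lay at -1 or below, a size reached by 1.90% of tested genes. The lowest si-NC library lay above the highest si-METTL3 library in all 7, which was so for 21.3% of tested genes. In the authors' deposited table all 7 were listed as lower too, with adjusted p from 8.08e-51 for Dtx3l to 0.0125 for Parp11, where 6.44% of the rows were lower at that threshold. The members were named with results of these data known, so these counts describe them and support nothing further. In RNA from whole cultures, fewer cells expressing a gene and less RNA per cell cannot be told apart.

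**Figure D1:**
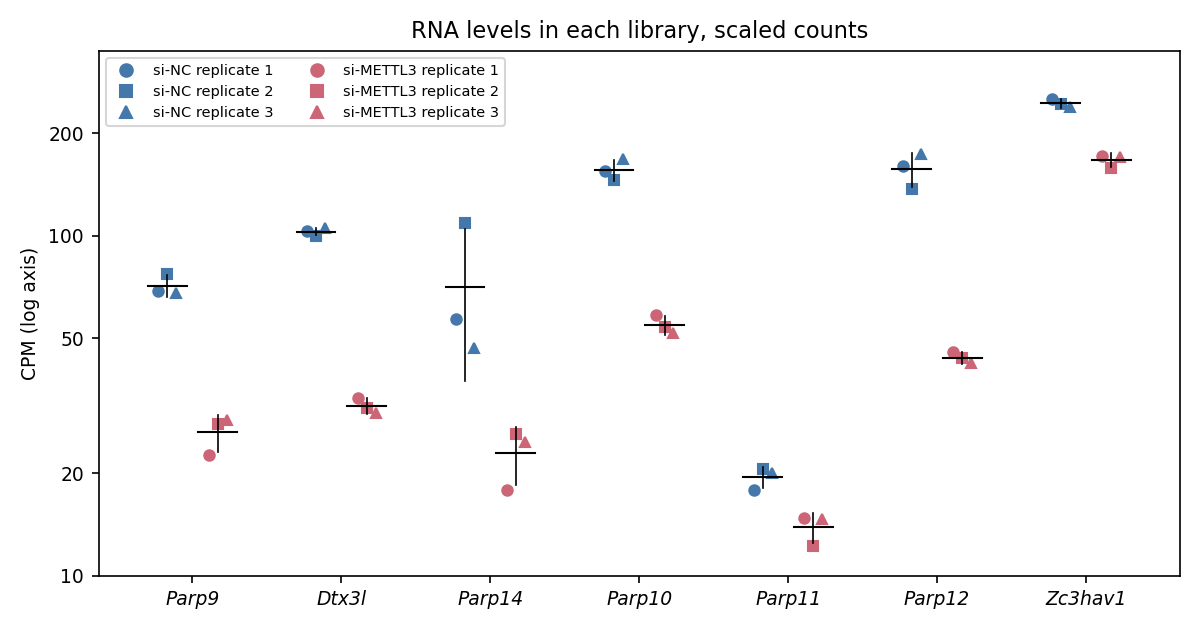
Scaled counts (CPM, log axis) of the 7 genes in each library; colours mark the group, symbols the replicate, horizontal lines the mean and vertical lines 1 SD (n = 3). In every gene the 3 si-METTL3 libraries lie below the 3 si-NC libraries, narrowly in Parp11, and Parp14 stands out by its si-NC spread, from 46.7 to 109 CPM.

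Parp9, Dtx3l and Parp14 lie in 1 stretch of chromosome 16 (GRCm38, GENCODE M21). Parp9 (ENSMUSG00000022906) runs on the plus strand, chr16:35938470-35972605, and Dtx3l (ENSMUSG00000049502) on the minus strand, chr16:35926511-35939151. Their first ends face each other and overlap by 682 bp, and since the sources used here do not say whether strand was used in counting, reads from that overlap cannot be assigned to either gene; the same holds for the 5854 bp that Parp9 shares with the antisense gene Gm15564. Parp14 (ENSMUSG00000034422; minus strand, chr16:35832874-35871544) follows 54966 bp beyond the end of Dtx3l. The 300 bases around the start of Dtx3l are shown because they also hold the annotated starts of 4 Parp9 transcripts. They come from RefSeq (GRCm38.p6, chr16:35938978-35939277, minus strand, read in the direction of Dtx3l, 250 bases before and 50 after its start), and the capitals mark the pair of IRF half-sites defined below.
Dtx3l promoter: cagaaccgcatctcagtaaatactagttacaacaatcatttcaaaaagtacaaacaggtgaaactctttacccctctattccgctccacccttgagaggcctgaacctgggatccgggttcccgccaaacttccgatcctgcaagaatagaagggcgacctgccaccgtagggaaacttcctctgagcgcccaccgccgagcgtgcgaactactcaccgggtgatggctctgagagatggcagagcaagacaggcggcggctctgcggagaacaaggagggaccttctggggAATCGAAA

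**Figure D2:**
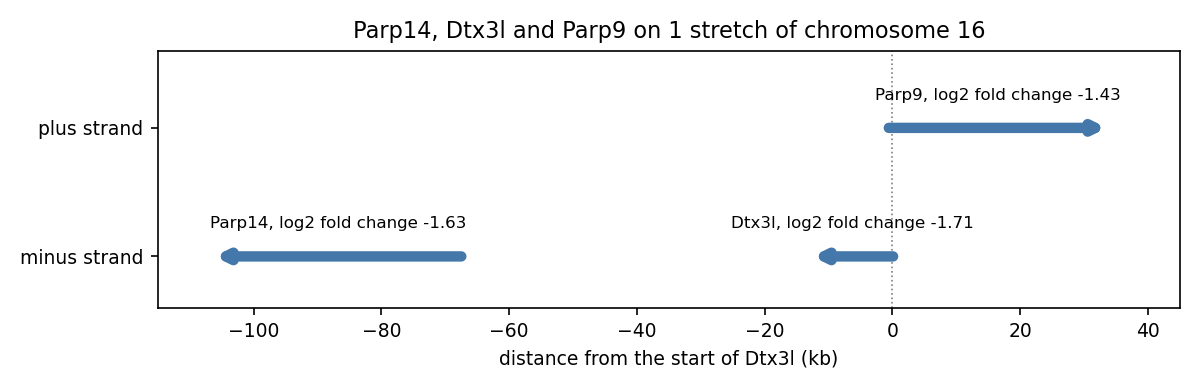
Positions of Parp14, Dtx3l and Parp9 as distance in kb from the RefSeq start of Dtx3l (dotted line); arrows run in the direction of transcription, and the log2 fold change of each gene is written beside it. Parp9 and Dtx3l start together and point apart, and Parp14 lies beyond the end of Dtx3l on the same strand; the 3 values range from -1.71 to -1.43.

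Parp9 encodes a macrodomain protein that is inactive as a transferase by itself and binds ADP-ribose. Its level was 68.9, 77.2 and 67.7 CPM in si-NC (counts scaled to the effective library size) and 22.6, 27.9 and 28.7 CPM in si-METTL3. The groups were far apart, the lowest si-NC library lying 2.36-fold above the highest si-METTL3 library. Parp9 fell 2.70-fold (log2 fold change -1.43, SE 0.12, edgeR adjusted p = 0.0007).

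Dtx3l encodes a ubiquitin ligase of the Deltex family that pairs with PARP9; in human cells the pair raises interferon-stimulated genes. It had 103, 100.1 and 105 CPM in si-NC and 33.4, 31.1 and 30.1 CPM in si-METTL3. Libraries of 1 group differed little, with a coefficient of variation of 2.56% in si-NC and 5.42% in si-METTL3. Dtx3l fell 3.26-fold (log2 fold change -1.71, SE 0.07, edgeR adjusted p = 6.62e-05), and by p it was number 11 of the 13082 tested genes.

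Parp14 encodes a large transferase with several macrodomains, described in mouse B cells as a cofactor of STAT6. Its level was 56.7, 109 and 46.7 CPM in si-NC and 17.9, 26.1 and 24.7 CPM in si-METTL3. The si-NC libraries disagreed, replicate 2 lying 2.11-fold above the mean of the other 2 libraries, and the coefficient of variation was 47.4%, the highest of the 7 genes. The groups nevertheless did not overlap, the nearest libraries differing 1.79-fold. Parp14 fell 3.10-fold (log2 fold change -1.63, SE 0.33, edgeR adjusted p = 0.0180), and without si-NC replicate 2 the log2 fold change was -1.18 (edgeR adjusted p = 0.00556). The call was lost without si-METTL3 replicate 1, 2 or 3 (edgeR adjusted p = 0.0551, 0.0674 and 0.0678), and over the 6 fits that each left out a library the adjusted p ran from 0.00556 to 0.0678. Of 10099 tested genes averaging at least 5 CPM, 464 (4.59%) were at least 2-fold higher in si-NC replicate 2 than the other controls' mean. With each gene's length averaged over its annotated transcripts, the median of these genes was 2784 bases, against 1803 over the 10099. By this measure Parp14 had 4008 bases, Dtx3l 3979 and Zc3hav1 3690. In si-NC replicate 2 Dtx3l and Zc3hav1 stood at 0.96 and 0.99 times the mean of the other si-NC libraries. The log2 CPM of tested genes, relative to their means over the libraries, was also fitted on length and GC content. Per doubling of length the slope was 0.007 in si-NC replicate 2, and -0.119 and -0.115 in replicates 1 and 3. In si-METTL3 it was 0.053, 0.084 and 0.089. Whether length has a part in the Parp14 spread was not tested. With a correction for transcript length and GC content the log2 fold change of Parp14 was -1.86 (edgeR adjusted p = 0.00216).

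The ratio of neighbouring genes within a library does not depend on library scaling. The log2 ratio of Dtx3l to Parp9, from the deposited FPKM (fragments scaled to transcript length and library total), was -0.18, -0.37 and -0.16 in the controls and -0.20, -0.51 and -0.75 after knockdown. The groups overlapped, and the difference of the means was -0.25 (exact two-sided permutation test, p = 0.20; with 3 against 3 the smallest possible p is 0.10). The log2 ratio of Parp14 to Parp9 was -1.57, -0.81 and -1.87 in the controls and -1.64, -1.43 and -1.59 after knockdown, a difference of -0.13 (exact permutation p = 0.80) that turned positive, to 0.17, without si-NC replicate 2. No difference in fold between these neighbours was detectable with 3 libraries a group.

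Parp10 and Parp12 encode enzymes that add single ADP-ribose units. PARP10 was first found as a partner of MYC, and PARP12 carries CCCH zinc fingers, sits at the Golgi and restricts alphaviruses in human and mouse cells. Parp10 (ENSMUSG00000063268; minus strand, chr15:76231174-76243441) had 155, 146 and 168 CPM in si-NC and 58.6, 53.7 and 51.6 CPM in si-METTL3. The nearest libraries of the groups differed 2.49-fold. Parp10 fell 2.86-fold (log2 fold change -1.51, SE 0.09, edgeR adjusted p = 0.000155). Its annotated end overlaps Plec on the same strand by 1401 bp, so reads there are uncertain. The same holds for the same-strand overlaps of Parp11 with Gm43633 (2330 bp) and of Parp14 with Gm49730 (1773 bp).

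Parp12 (ENSMUSG00000038507; minus strand, chr6:39086410-39118349) had 160, 138 and 173 CPM in si-NC and 45.5, 43.6 and 42.1 CPM in si-METTL3. It fell the most of the 7 genes, 3.59-fold (log2 fold change -1.84, SE 0.10, edgeR adjusted p = 0.000125), which left 27.8% of the si-NC level. In the order of all tested genes from the most negative fold change it was number 82, followed by Dtx3l at 94, Parp14 at 100, Parp10 at 110 and Parp9 at 122. Zc3hav1 was number 776 and Parp11 number 1022.

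Parp11 and Zc3hav1 had the smallest fold changes; whether their folds differ from those of the other 5 genes was not tested. Parp11 encodes a transferase of the nuclear envelope that mouse spermatids need to shape the nucleus, and human PARP11 lowers the interferon receptor subunit IFNAR1. Parp11 (ENSMUSG00000037997; plus strand, chr6:127446840-127494261) was the least abundant by scaled counts, with 17.9, 20.5 and 20.1 CPM in si-NC and 14.8, 12.3 and 14.6 CPM in si-METTL3. The groups did not overlap but came within 1.21-fold of each other. It fell 1.40-fold (log2 fold change -0.49, SE 0.11, edgeR adjusted p = 0.0281). That call held in 2 of the 6 fits with 1 library left out and was lost without si-NC replicate 1 (edgeR adjusted p = 0.0682) or 3 (0.0606) and without si-METTL3 replicate 2 (0.101) or 3 (0.0823), the whole range being 0.0305 to 0.101.

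Zc3hav1 (ENSMUSG00000029826; minus strand, chr6:38305286-38354603) encodes ZAP, which binds RNA rich in CpG and brings in decay factors. It had the highest scaled counts of the 7 in both groups, with 253, 244 and 239 CPM in si-NC and 172, 158 and 171 CPM in si-METTL3. Coefficients of variation were 2.93% and 4.69%, and the groups stayed 1.39-fold apart. Zc3hav1 fell 1.47-fold (log2 fold change -0.56, SE 0.07, edgeR adjusted p = 0.00328), a call that held in all 6 fits with 1 library left out. The calls of Parp9, Parp10, Parp12 and Dtx3l held in all 6 as well. Of all tested genes, 2.38% were called lower in all 6 of these fits and with all libraries.

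**Figure D3:**
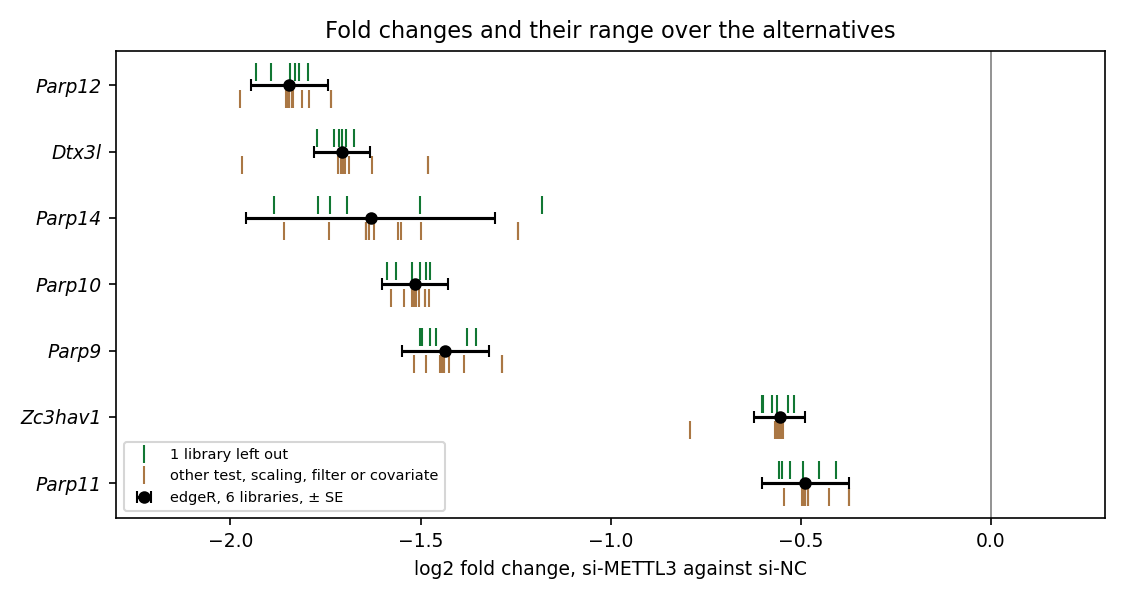
Log2 fold change of each gene, si-METTL3 against si-NC: points with bars give the edgeR value ± SE over 6 libraries, green ticks the values with 1 library left out, brown ticks those under another test, scaling, filter or covariate. Parp12, Dtx3l, Parp14, Parp10 and Parp9 lie between -1.84 and -1.43, Zc3hav1 and Parp11 at -0.56 and -0.49, every value is below 0, and the ticks of Parp14 spread most, from -1.89 to -1.18.

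Of the 7 genes, RefSeq promoters were found for Dtx3l, Parp11, Parp12 and Zc3hav1, 5 windows in all since Parp11 has 2 starts; Parp9, Parp10 and Parp14 had no entry. They were searched on both strands for the ISRE core GAAANNGAAA, the GAS TTCNNNGAA and the IRF half-site pair AANNGAAA. Every match to the ISRE core also holds the half-site pair. Among 32851 mouse promoters of this length 3.44% held the ISRE core, 8.30% the GAS and 23.9% the half-site pair. The ISRE core and the GAS were each in 1 of the 5 windows, the upstream start of Parp11, and the half-site pair was in that window and in the Dtx3l window. The Parp11 window is shown for this reason (RefSeq, GRCm38.p6, chr6:127446590-127446889, plus strand), with the matches in capitals. The ISRE match begins at position -44 from the start, on the minus strand, and its last 3 bases are the first of the GAS match at -37. A match is a run of letters and not a bound site, and whether it bears on the size of a fall was not tested.
Parp11 promoter, upstream start: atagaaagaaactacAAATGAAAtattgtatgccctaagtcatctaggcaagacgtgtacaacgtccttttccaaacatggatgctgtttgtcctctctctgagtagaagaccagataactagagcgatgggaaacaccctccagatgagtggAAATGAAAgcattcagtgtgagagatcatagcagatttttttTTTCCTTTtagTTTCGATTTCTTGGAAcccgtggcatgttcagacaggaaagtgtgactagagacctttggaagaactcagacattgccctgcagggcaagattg

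Levels can be compared between genes only per length. By deposited FPKM in si-NC, Zc3hav1 had 47.1 ± 1.70 (SD, n = 3), Parp10 43.2 ± 2.25, Parp12 39.7 ± 4.07, Parp9 19.5 ± 1.58, Dtx3l 16.5 ± 0.0950, Parp14 7.85 ± 3.82 and Parp11 7.61 ± 0.374 FPKM. Libraries of neighbours in that order overlapped between Zc3hav1 and Parp10, between Parp10 and Parp12, and between Parp14 and Parp11, although within each si-NC library Parp10 stood above Parp12 and Parp9 above Dtx3l. Zc3hav1 lay above Parp10 in 2 of the 3 si-NC libraries, and Parp14 above Parp11 only in replicate 2, so these pairs have no clear order. In si-METTL3 the FPKM were 31.8 ± 1.23 for Zc3hav1, 14.8 ± 1.41 for Parp10, 11.2 ± 0.581 for Parp12, 7.43 ± 1.01 for Parp9, 5.66 ± 0.604 for Parp11, 5.29 ± 0.379 for Dtx3l and 2.55 ± 0.469 for Parp14. In si-NC the lowest Zc3hav1 library had 45.4 FPKM and the highest Parp10 library 45.8 FPKM, whereas in si-METTL3 the lowest Zc3hav1 library had 30.5 FPKM and the highest Parp10 library 16.1 FPKM. Parp11 passed from the lower end of the order to the range of Dtx3l, with which it overlapped. The length used for FPKM was not quite fixed per gene: relative to Parp9 it varied by up to 14.2% between libraries in a member.

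**Figure D4:**
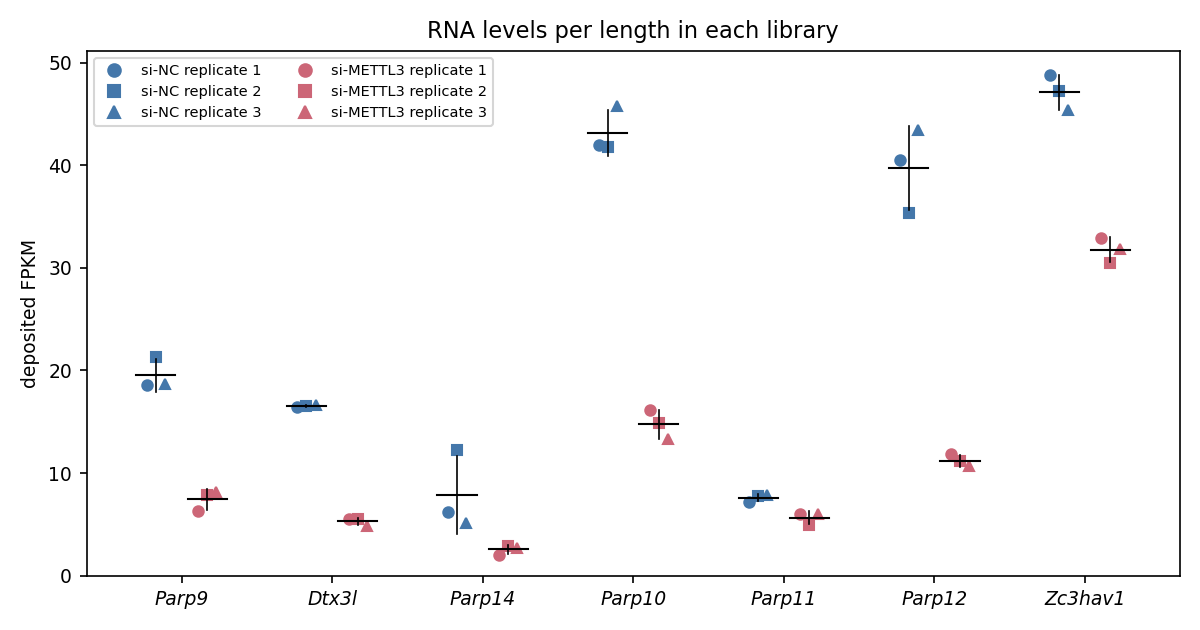
Deposited FPKM of the 7 genes in each library on a linear axis from 0; colours mark the group, symbols the replicate, horizontal lines the mean and vertical lines 1 SD (n = 3). In si-NC the libraries of Zc3hav1, Parp10 and Parp12 lie between 35.3 and 48.8, and in si-METTL3 Zc3hav1 lies at 30.5 to 32.9 and the other 6 genes at 16.1 or below.

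The lncRNA table held 1 transcript of Parp10 and 1 of Parp9 that code for no protein. Parp10-204 (chr15:76233390-76234253) was counted 26, 40 and 33 times in the si-NC libraries and 2, 5 and 4 times in the si-METTL3 libraries. It lay lower in each si-METTL3 library, but its log2 fold change of -2.81 (SE 0.52) missed the threshold (edgeR adjusted p = 0.0708), in a table where 0.576% of 5728 tested transcripts were called lower and 0.733% in either direction. The Parp9 transcript (chr16:35941033-35947921) was counted 16, 13 and 11 times in the controls and 2, 4 and 3 times after knockdown, below the filter; with no filter its log2 fold change was -1.78 (SE 0.85, edgeR adjusted p = 0.546). Both lie within the span of their genes, and the sources used here do not say how reads shared with the coding transcripts were divided.

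The siRNA printed in the labels was compared with the transcripts of the 7 genes. It matched Mettl3 over all 19 bases, and the longest unbroken run in a PARP group gene was 11 bases, in Parp14, against 7 or 8 bases in the other 6 genes. A run of 11 bases was found in 0.328% of 22255 genes with a GENCODE M21 transcript, Mettl3 among them. The Parp14 run lies in coding exon 6 of Parp14-201 (chr16:35858368-35858378, minus strand) and corresponds to bases 7 to 17 of the siRNA, counted from its first printed base. Both sequences are shown because Parp14 is a called gene, with the shared run in capitals. Whether this run has a part in the fall of Parp14 was not tested.
siRNA in the labels: gctaccGTATGGGACATta
Parp14-201 site: gctcgccaGTATGGGACATcataaagc

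The remaining PARP genes gave other values. Of 10 tested, none passed the threshold in edgeR, DESeq2 or limma-voom. Their median log2 fold change was 0.02, with a range of -0.25 to 0.44. Only the tankyrase gene Tnks2 had an unadjusted edgeR p under 0.05. It had 325, 385 and 278 CPM in si-NC and 405, 418 and 463 CPM in si-METTL3. The Tnks2 groups did not overlap (log2 fold change 0.38, SE 0.12, edgeR adjusted p = 0.0722). Parp1, the main polymerase at DNA breaks, had 0.14 (SE 0.07, edgeR adjusted p = 0.224), and Tiparp, a target of the aryl hydrocarbon receptor, -0.04 (SE 0.28). The largest value was that of the tankyrase gene Tnks, with 88.6, 155 and 69.5 CPM in si-NC and 123, 141 and 162 CPM in si-METTL3. Its groups overlapped through si-NC replicate 2, the library in which Parp14 was high as well (log2 fold change 0.44, SE 0.28, edgeR adjusted p = 0.297).

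Of 7 tested genes for the removal of ADP-ribose, 1 fell and none rose (median log2 fold change -0.09), namely Oard1, a macrodomain hydrolase, with 33.3, 28.8 and 31.6 CPM in si-NC and 24.7, 24.3 and 24.7 CPM in si-METTL3 (-0.35, SE 0.09, edgeR adjusted p = 0.0372). The Oard1 call held in 1 of the 6 fits with 1 library left out. None of 4 other Deltex genes and none of 8 genes of NAD metabolism passed in edgeR, DESeq2 or limma-voom, and 0 and 1 of them had an unadjusted edgeR p under 0.05. Log2 fold changes ranged from -0.04 to 0.16 in the Deltex genes and from -0.68 to 0.53 in those of NAD metabolism. Nampt, the rate-limiting enzyme of NAD salvage, stood at -0.28 on the log2 scale (SE 0.17, edgeR adjusted p = 0.276).

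Of 12 tested partners and decay factors of ZAP, 5 fell and none rose by edgeR, and DESeq2 and limma-voom each called 5 lower (median log2 fold change -0.30). Trim25, the ubiquitin ligase that ZAP requires and an interferon-induced gene itself, had 22.8, 27.5 and 31.4 CPM in si-NC and 6.91, 11.0 and 15.1 CPM in si-METTL3. It fell by 1.31 on the log2 scale (SE 0.27, edgeR adjusted p = 0.0200), a call held in 5 of the 6 fits with 1 library left out. The exosome genes Exosc5 (log2 fold change -0.58), Exosc4 (-0.51) and Exosc10 (-0.35) and the deadenylase gene Parn (-0.30) fell by less, with calls held in 3, 4, 1 and 1 of those fits. Khnyn, the endonuclease cofactor of ZAP (0.23, edgeR adjusted p = 0.0976), and the paralog Zc3hav1l (0.33, edgeR adjusted p = 0.120) did not pass.

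Of 14 genes of interferon reception, JAK-STAT signalling and interferon regulatory factors, 6 fell and none rose by edgeR, and DESeq2 and limma-voom each called 6 lower (median log2 fold change -0.12). Irf7, an interferon-induced factor that raises type I interferon genes, had 127, 108 and 145 CPM in si-NC and 10.5, 16.8 and 9.33 CPM in si-METTL3. The groups were far apart in Irf7 (log2 fold change -3.38, SE 0.24, edgeR adjusted p = 0.000423), and Irf1, which acts on ISRE-like sites, fell by 0.50 on the log2 scale (SE 0.08, edgeR adjusted p = 0.0094). The negative regulator gene Socs1 (log2 fold change -1.55) fell too, as did Irf9, Stat2 and Usp18, whose log2 fold changes were -1.58, -1.44 and -4.55. Usp18 encodes a protease that removes ISG15 and restrains signalling, and Irf9 and Stat2 encode transcription factors that act together. The Stat2 call held in 2 of the 6 fits with 1 library left out. Receptor and kinase genes did not pass, with log2 fold changes of 0.12 for Ifnar1, -0.25 for Ifnar2, 0.01 for Ifngr1, 0.10 for Ifngr2, 0.22 for Jak1, 0.11 for Jak2 and 0.17 for Tyk2, and Irf3 had 0.03.

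**Figure D5:**
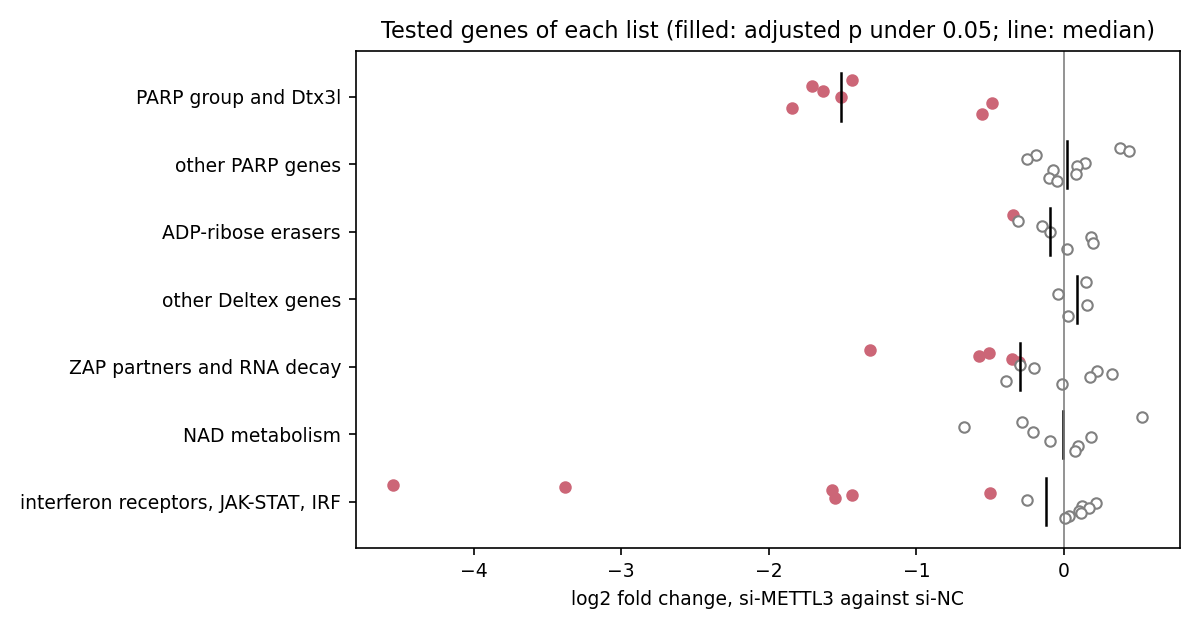
Log2 fold change (si-METTL3 against si-NC) of each tested gene in the PARP group and in 6 related lists; filled points passed an edgeR adjusted p of 0.05, open points did not, and vertical lines are medians. The PARP group has all 7 points filled and a median of -1.51, the other PARP genes have 10 open points around 0.02, and the interferon signalling list has 6 filled points.

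Likeness of pattern was measured as Pearson's r of log2 CPM (prior count 2) over the 6 libraries, which share the 2 groups, among 9872 tested genes with at least 5 CPM on average. It is given as a description. The closest to Dtx3l were Mx2 (r = 0.99997) and Oas3 (r = 0.99966), an antiviral GTPase and an oligoadenylate synthetase, whose log2 fold changes were -4.17 and -3.80. Parp12 was closest to Igtp (r = 0.99943), an interferon-inducible GTPase, and to Uba7 (r = 0.99891), the activating enzyme for ISG15. Parp10 was closest to Gnb4 (r = 0.99943) and Oas3 (r = 0.99932), and Parp9 to Plscr2 (r = 0.99807) and Ankrd1 (r = 0.99713). Zc3hav1 was closest to the helicase gene Dhx29 (r = 0.99784) and to Tnfaip3 (r = 0.99727), which encodes an inhibitor of NF-kB. Parp11 had Basp1 (r = 0.99420) and Tctex1d2 (r = 0.99169) nearest. For Parp14 the nearest were Apoe (r = 0.98810) and Ppm1l (r = 0.98762), neither of which passed the threshold (edgeR adjusted p = 0.0575 and 0.0739).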

How the data were processed

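The authors deposited whole-number counts and FPKM per library for genes (mRNA table) and transcripts (lncRNA table), per the file headers. The submitters' processing notes name fastp, Bowtie2, StringTie, RSEM and the mouse build mm9, with no versions or roles; the test behind the deposited log2 fold changes, p-values and adjusted p-values, and the use of strand, are not given in the sources used here. Groups and replicate numbers came from the titles. Counts were fitted in edgeR 4.0.16 (R 4.3.3) with TMM, filterByExpr and the group alone, on each whole table, with Benjamini-Hochberg adjustment; SE is the log2 fold change over the square root of F. The fit was tested on simulated data. Alternatives used DESeq2 1.42.0, limma 3.58.1 and sva 3.50.0. Permutation tests used scipy 1.17.1, and figures matplotlib 3.10.9. Genes and lists, and the rule for genes of like pattern (the 2 highest r per member, predicted and clone names left out), were chosen with earlier results of these data known; all listed genes given here are called genes, the largest of a list, or chosen after their values were seen. Coordinates are GRCm38 (GENCODE M21, which held 22255 of the mRNA identifiers); none was converted from mm9. One gene of the interferon signalling list is not reported here.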

Additional observations from a re-analysis of the deposited data

How the results depend on the processing

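Besides the fits with 1 library left out, 12 alternatives of test, scaling, filter, unit or covariate were run. The falls of Parp9, Parp10, Parp12, Dtx3l, Zc3hav1 and Mettl3 kept direction and call in all 18 fits. Parp11 missed the threshold with limma on log2(FPKM + 1) and no filter (-0.37, adjusted p = 0.0705) and with the replicate block (-0.49, adjusted p = 0.0731), and ranged from -0.56 to -0.41 with 1 library left out; Parp14 ranged from -1.89 to -1.18 there. The ratio of Parp14 to Parp9 turned to 0.0439 with log2(FPKM + 1) and ranged from -0.36 to 0.17 with 1 library left out. Called mRNA genes numbered 2468, 1273 with the replicate block, 5588 with 1 surrogate variable, and 665 to 4917 with 1 library left out. Called lncRNA-table transcripts numbered 42, 150 with no filter, 257 by DESeq2, 0 by edgeR with the replicate block (789 at an unadjusted p under 0.05), and 0 to 77 with 1 library left out; both upper ends came without si-NC replicate 2, and the mRNA count was lowest without si-METTL3 replicate 3. Parp10-204 passed with no filter (-2.80, adjusted p = 0.0343). The causes were not tested. Deviations from the group means correlated at r = 0.07, 0.20 and -0.31 between same-numbered libraries. Between differently numbered ones r ran from -0.395 to 0.337. With 3 libraries a group these values cannot show whether libraries were paired. Besides that of Parp11, the block ended no call among the 7 genes. Low counts limit both non-coding transcripts.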
